A study of Mus musculus with 8 samples.

Results

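The beta-defensin genes of the mouse were followed across sperm and epididymis. Every gene whose symbol starts with Defb and a digit was taken where a probe set carried that gene alone, whatever its signal. This gave 40 genes of the 19411 genes on the array, each with 1 probe set, and 1 of them, Defb44-ps, is annotated as a pseudogene. A further probe set carries Defb35 and Defb12 together and was not used, and Defb2, Defb9 and Defb12 were not analysed here.

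Beta-defensins are small secreted cationic peptides held together by disulfide bonds, and they kill microbes by disturbing their membranes. Some also attract leukocytes through chemokine receptors such as Ccr6. Mammals carry many of them in tandem gene clusters, and a large share is made by the epididymis, whose epithelium secretes them into the lumen where they coat maturing sperm and take part in motility and in passage through the female tract.

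RNA was hybridised to Affymetrix arrays, 1 array per sample, from C57/Bl6 mice. There were 3 sperm samples from males on control diet, 2 from males on low protein diet and 1 from caloric restriction, and 1 epididymis sample from each of the control and low protein diets. The labels give an age of 9 to 12 weeks for males on the control and low protein diets, and the sperm came from the caudal epididymis, released into M2 medium over 30 minutes at 37 °C, washed, and kept where microscopy showed purity above 99.5%. The labels do not say which part of the epididymis the tissue samples came from, nor how many animals a sample holds, so p-values measure the spread between these arrays.

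The arrays were checked against marker genes before the family was read. All 15 late germ cell and sperm markers were higher and all 10 smooth muscle markers lower in sperm than in epididymis by limma at an adjusted p under 0.05. Myh11, a smooth muscle myosin that the labels' protocol used to reject impure sperm, fell by 4.10 on the log2 scale in sperm and still read 7.09 to 8.13 there, above the gene medians of 6.29 to 6.37 on the 8 arrays. Of 20 markers of the proximal epididymis, 13 read below the array median in epididymis. The second low protein sperm array stood apart from the other sperm arrays, with Pearson correlations over genes of 0.87 to 0.93 to them against 0.93 to 0.99 among the others, and results that rest on it are given with and without it.

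The 40 genes lie in 6 groups on 4 chromosomes, where a group is a run of genes with starts under 500 kb apart in RefSeq's GRCm38.p6 annotation. A run of 3 lies on chromosome 1, 11 on chromosome 2, 13, 7 and a lone Defb33 on chromosome 8, and 5 on chromosome 14. RefSeq's promoter table held 28 of the 40. The 250 bases before the start are shown for 3 pairs of genes from the same runs, with both genes of each pair lower in sperm and the most matching bases among such pairs, with coordinates on GRCm38.p6. Capitals mark TGTTCT, a half-site of the androgen receptor, or its reverse complement AGAACA.
Defb10, chr8:21858651-21858900, plus strand: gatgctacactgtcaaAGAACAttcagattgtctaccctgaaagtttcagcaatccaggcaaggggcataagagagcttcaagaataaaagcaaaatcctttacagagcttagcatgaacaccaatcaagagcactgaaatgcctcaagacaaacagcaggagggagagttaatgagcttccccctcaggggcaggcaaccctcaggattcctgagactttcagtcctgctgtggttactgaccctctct
Defb11, chr8:21906433-21906682, minus strand: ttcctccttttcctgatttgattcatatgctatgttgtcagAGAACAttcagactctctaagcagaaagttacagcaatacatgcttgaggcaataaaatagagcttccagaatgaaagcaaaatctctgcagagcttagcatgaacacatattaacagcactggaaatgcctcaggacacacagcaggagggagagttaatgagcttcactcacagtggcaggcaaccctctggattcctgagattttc
Defb26, chr2:152511737-152511986, minus strand: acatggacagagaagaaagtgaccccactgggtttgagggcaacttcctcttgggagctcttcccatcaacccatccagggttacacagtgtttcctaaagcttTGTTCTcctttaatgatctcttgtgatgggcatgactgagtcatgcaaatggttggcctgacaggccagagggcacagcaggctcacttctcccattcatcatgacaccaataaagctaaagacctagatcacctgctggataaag
Defb28, chr2:152518005-152518254, plus strand: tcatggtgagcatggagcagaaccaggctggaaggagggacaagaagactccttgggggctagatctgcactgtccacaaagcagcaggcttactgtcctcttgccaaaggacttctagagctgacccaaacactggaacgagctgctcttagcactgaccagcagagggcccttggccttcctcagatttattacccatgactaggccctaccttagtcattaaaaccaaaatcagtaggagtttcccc
Defb38, chr8:19026569-19026818, minus strand: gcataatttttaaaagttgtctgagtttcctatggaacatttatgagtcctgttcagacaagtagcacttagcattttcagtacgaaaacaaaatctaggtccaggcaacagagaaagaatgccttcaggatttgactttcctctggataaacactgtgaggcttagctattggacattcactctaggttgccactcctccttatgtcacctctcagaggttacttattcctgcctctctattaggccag
Defb39, chr8:19064922-19065171, minus strand: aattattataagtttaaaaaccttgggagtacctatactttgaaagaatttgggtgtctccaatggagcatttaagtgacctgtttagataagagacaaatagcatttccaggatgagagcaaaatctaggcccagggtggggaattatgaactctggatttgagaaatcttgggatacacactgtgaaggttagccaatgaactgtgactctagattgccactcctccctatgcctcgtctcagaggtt
Over the bases that aligned, the pair Defb10 and Defb11 matched at 188 of 221, Defb26 and Defb28 at 162 of 193, and Defb38 and Defb39 at 161 of 216. The pair Defb42 and Defb43, not shown, matched at 120 of 165. The closest pair in the family was Defb3 and Defb8, neither of which passed the test between tissues, at 222 of 244. Over all 378 pairs the median was 97 matching bases. Genes on different chromosomes also reached high counts, with Defb21 and Defb5 at 159 of 204 and Defb11 and Defb43 at 156 of 204. Counts near these therefore do not set neighbours apart. TGTTCT, read on both strands, was present in 14 of the 28 promoters and in 4 of the 8 that belonged to genes lower in sperm, against 16.1% of 32851 RefSeq promoters of the same length. TATAAA, the core of a TATA box, was present on either strand in 5 of the 28 and in 0 of those 8, against 12.4%. On the gene's own strand 3 of the 28 held it, and 2 held it with its first base 25 to 60 bases before the start, against 2.48% of all promoters. A loose form of the NF-kB site, read on both strands, was present in 10 of the 28 and in 3 of those 8, against 45.8%. The motifs were picked with the values known. Only the first listed start was used for Defb21, which has more than 1. Several of these promoters are alike, as for Defb3 and Defb8, so the shares describe letters in these windows and are no test.

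Signal in the family ran from the bottom to the top of the array, with more genes below the median than above it. In epididymis 9 of the 40 genes had a mean percentile above 75 among all genes, 25 lay below the median and 14 below the 25th percentile. By construction about 25% of all genes lie above the 75th percentile and about 25% below the 25th. The share of the family above the 75th was thus near that of the array. The lowest of the 9, Defb37, stood at the 76.0th percentile, between Defb39 at the 90.4th and Defb10, outside the group, at the 59.1th. Defb37 thus lay close to the cut, and on the low protein epididymis array it read at the 73.8th percentile. The 9 were Defb11, Defb28, Defb43, Defb40, Defb42, Defb1, Defb38, Defb39 and Defb37, and they fall in 4 of the 6 groups. They were picked on their epididymis level after the values were seen, so what they do between tissues is given as description. In sperm 4 or 5 genes of the family lay above the 75th percentile of an array, against 9 and 8 on the control and low protein epididymis arrays. Probe sets differ in how well they bind their target, so these ranks describe signal and not the order of RNA amounts between genes.

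**Figure D1:**
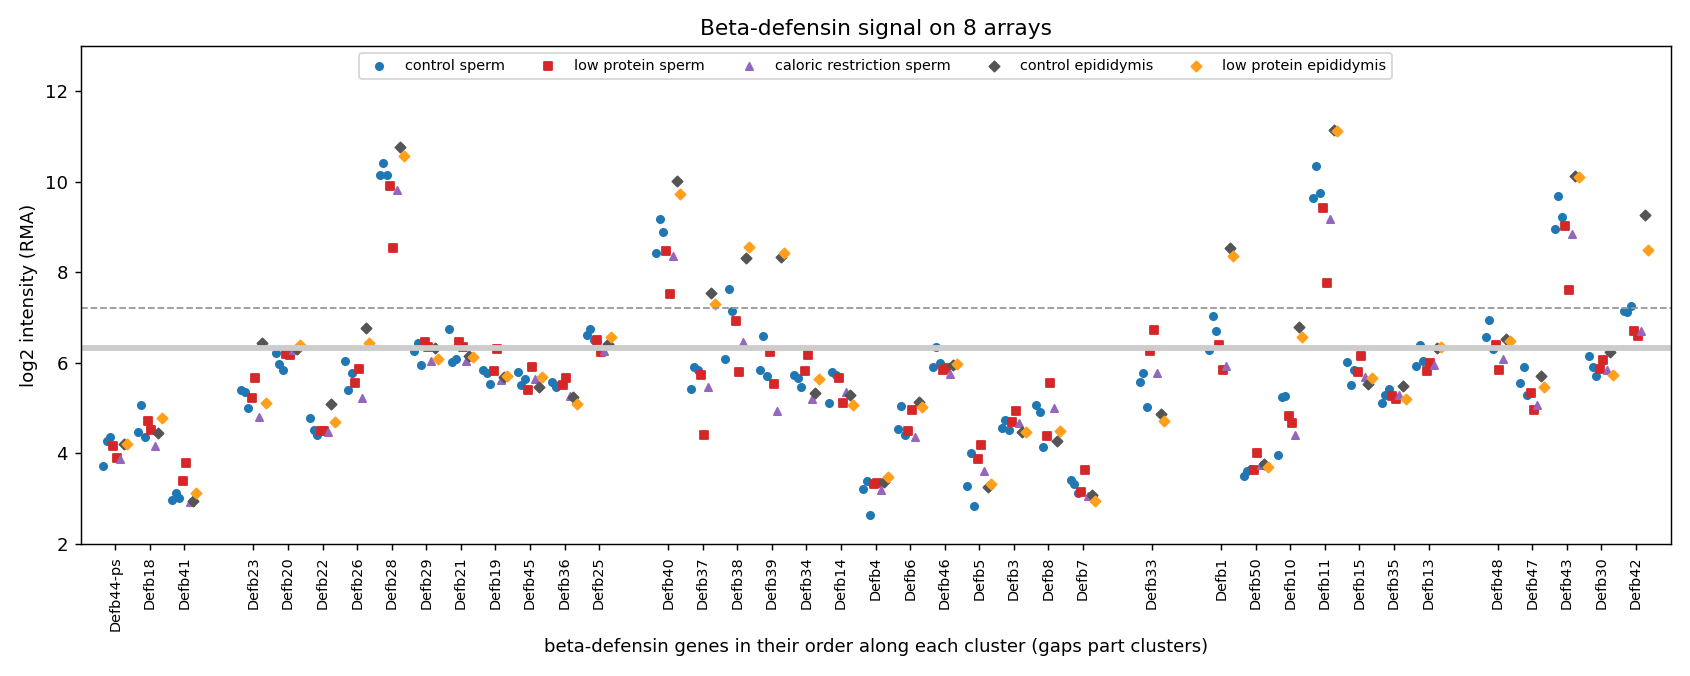
Log2 intensity (RMA, y axis) of 40 beta-defensin genes on 8 arrays, with genes on the x axis in chromosomal order within each cluster; each symbol is 1 array, the grey band spans the medians of all genes on the 8 arrays and the dashed line is the mean upper quartile. Signal above the dashed line is limited to a few genes per cluster, such as Defb28, Defb40, Defb11 and Defb43, and in these the 2 epididymis arrays (diamonds) stand above the 6 sperm arrays.

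Sperm and epididymis were compared to ask which beta-defensin RNAs differ between the cells leaving the epididymis and the tissue itself. In sperm 11 of the 40 genes were lower (27.5%, against 22.7% of all genes) and 1 was higher (against 15.2% of all genes), so that 12 of 40 were called in either direction (against 37.8% of all genes), by limma with Benjamini-Hochberg adjustment over 19411 genes at 0.05. The share of lower genes in the family was near that of the array. The genes that fell were Defb39, Defb1, Defb37, Defb42, Defb10, Defb11, Defb38, Defb40, Defb43, Defb28 and Defb26, by 1.86 to 5.29 times, and Defb33 rose 2.22 times. The median change was -0.11 over the 40 genes and 0.05 over all genes. Among all genes called, 40.1% were higher in sperm, and after cyclic loess between arrays 51.5% were. There 12 members were called, where 7959 of the 19411 genes were, and 11 of these members were among the 12 named here. Without the low protein epididymis array 7 members were lower and 0 higher, where 8.90% and 5.45% of all genes were. That fit sets the 3 control sperm arrays against 1 epididymis array, since the restricted diets then occur only in sperm. The same holds wherever this array is left out below. Where the control epididymis array is left out instead, the low protein sperm arrays are set against the low protein epididymis array. Without the second low protein sperm array 13 were lower, where 25.4% of all genes were. In bulk samples fewer cells of a type and less RNA per cell cannot be told apart.

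**Figure D2:**
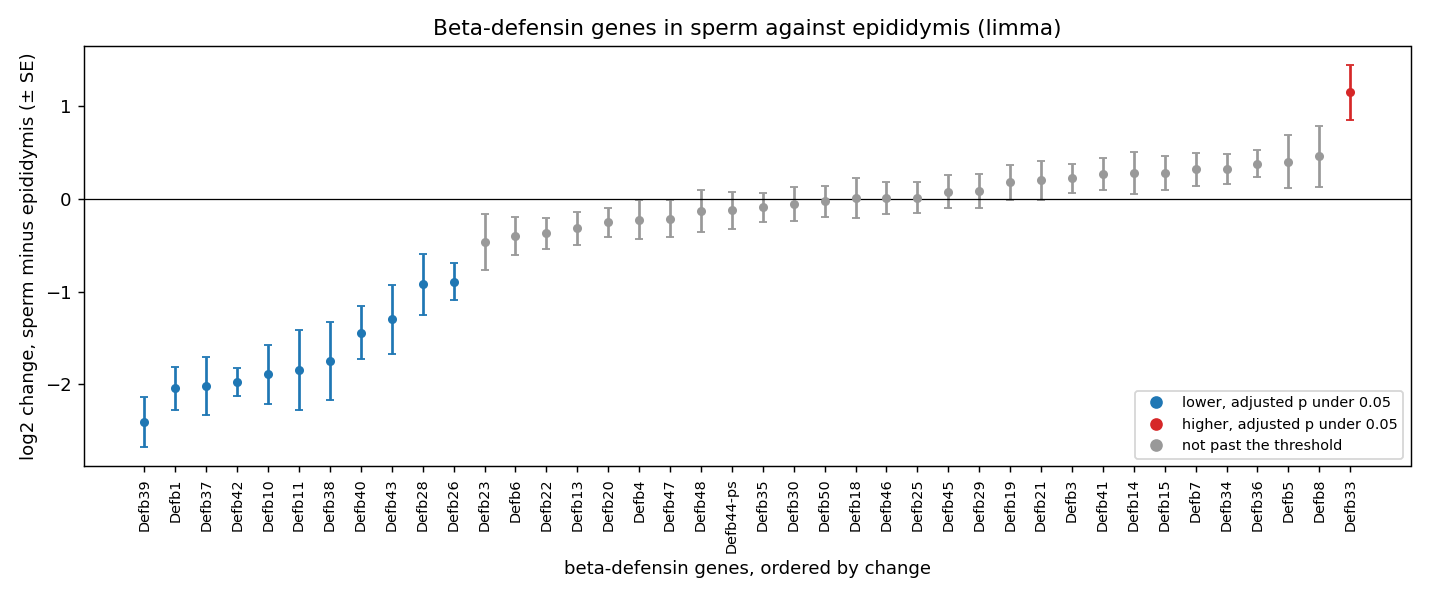
Log2 change between sperm and epididymis (y axis, limma estimate with its SE) for 40 beta-defensin genes ordered by change (x axis). Blue points mark the 11 genes lower in sperm and the red point Defb33, the 1 gene higher, at an adjusted p under 0.05; the 28 grey points lie between -0.47 and 0.46.

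On chromosome 8 the neighbours Defb40, Defb37, Defb38 and Defb39, known for region-specific expression in the epididymis, were all lower in sperm, while the other 9 genes of their run did not pass the test. Defb39 read 5.85, 6.59 and 5.71 in control sperm, 6.25 and 5.53 in low protein sperm, 4.94 in caloric restriction sperm, 8.33 in control epididymis and 8.43 in low protein epididymis. All 6 sperm arrays lay below both epididymis arrays, and the caloric restriction array was the lowest. The change of Defb39 was -2.40 ± 0.27 (SE; limma adjusted p = 0.000152), the largest fall in the family. Defb37 read 5.41, 5.92 and 5.84 in control sperm, 5.73 and 4.40 in low protein sperm, 5.46 in caloric restriction sperm, 7.55 in control epididymis and 7.30 in low protein epididymis. The second low protein array was the lowest for Defb37 and the groups did not overlap, with a change of -2.02 ± 0.31 (limma adjusted p = 0.000926). Defb38 read 6.08, 7.63 and 7.15 in control sperm, 6.93 and 5.80 in low protein sperm, 6.46 in caloric restriction sperm, 8.31 in control epididymis and 8.55 in low protein epididymis. Sperm arrays of the same diet differed by more than 1 log2 unit here, yet none reached the epididymis, and the change was -1.75 ± 0.42 (limma adjusted p = 0.00889, and 0.151 without the low protein epididymis array). Defb40 read 8.42, 9.18 and 8.89 in control sperm, 8.48 and 7.52 in low protein sperm, 8.37 in caloric restriction sperm, 10.01 in control epididymis and 9.74 in low protein epididymis. Its sperm values stayed well above the array median while remaining below epididymis, and the change was -1.44 ± 0.29 (limma adjusted p = 0.00349, and 0.0797 without the low protein epididymis array).

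In the second run on chromosome 8, Defb1, Defb10 and Defb11 were lower in sperm and the other 4 genes did not pass the test. Defb1 read 6.29, 7.02 and 6.70 in control sperm, 6.40 and 5.83 in low protein sperm, 5.93 in caloric restriction sperm, 8.53 in control epididymis and 8.36 in low protein epididymis. Defb1, a defensin made constitutively by many epithelia, did not overlap between tissues and changed by -2.04 ± 0.23 (limma adjusted p = 0.000173). Defb11 read 9.64, 10.35 and 9.74 in control sperm, 9.42 and 7.75 in low protein sperm, 9.18 in caloric restriction sperm, 11.14 in control epididymis and 11.12 in low protein epididymis. This gene had the highest epididymis signal of the family, at the 99.6th percentile, and its sperm arrays spanned more than 2 log2 units with the second low protein array at the bottom. Its change was -1.84 ± 0.43 (limma adjusted p = 0.00794), and without the low protein epididymis array -1.23 (limma adjusted p = 0.17). Defb10 read 3.97, 5.24 and 5.26 in control sperm, 4.83 and 4.67 in low protein sperm, 4.42 in caloric restriction sperm, 6.78 in control epididymis and 6.56 in low protein epididymis. Signal of Defb10 fell below the array median in sperm and lay above it in epididymis, a change of -1.89 ± 0.32 (limma adjusted p = 0.00138). Probes of close relatives such as Defb10 and Defb11 may bind both RNAs, so a share of one signal can belong to the other.

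On chromosome 14, Defb42 and Defb43 were lower in sperm and the other 3 genes did not pass the test. Defb42 read 7.15, 7.12 and 7.25 in control sperm, 6.71 and 6.59 in low protein sperm, 6.69 in caloric restriction sperm, 9.26 in control epididymis and 8.50 in low protein epididymis. The 6 sperm arrays were close to each other and about 2 log2 units under epididymis, and the change of -1.97 ± 0.15 (limma adjusted p = 1.91e-05) had the smallest p of the family. Defb43 read 8.95, 9.68 and 9.23 in control sperm, 9.03 and 7.60 in low protein sperm, 8.85 in caloric restriction sperm, 10.14 in control epididymis and 10.12 in low protein epididymis. The second control sperm array came closest to epididymis for Defb43, and the second low protein array was the lowest. Its change was -1.30 ± 0.37 (limma adjusted p = 0.02), which lost the call under quantile normalization (-0.84, adjusted p = 0.0894), without the first control sperm array (adjusted p = 0.0536) and without the low protein epididymis array (adjusted p = 0.285). Defb48 read 6.56, 6.96 and 6.31 in control sperm, 6.38 and 5.85 in low protein sperm, 6.08 in caloric restriction sperm, 6.53 in control epididymis and 6.48 in low protein epididymis. Defb48, in the same run, overlapped between tissues, with a change of -0.13 ± 0.22 (limma adjusted p = 0.666).

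Among the 11 genes on chromosome 2, which include several linked to sperm maturation, Defb26 and Defb28 were lower in sperm. Defb28 read 10.14, 10.41 and 10.14 in control sperm, 9.91 and 8.54 in low protein sperm, 9.82 in caloric restriction sperm, 10.78 in control epididymis and 10.57 in low protein epididymis. Defb28 was the brightest of the family in sperm, and the gap to epididymis was under 1 log2 unit except on the second low protein array. Its change of -0.92 ± 0.33 (limma adjusted p = 0.0497) sat at the threshold, and over the alternatives its adjusted p ran from 0.00512 to 0.449. Defb26 read 6.05, 5.39 and 5.78 in control sperm, 5.56 and 5.86 in low protein sperm, 5.22 in caloric restriction sperm, 6.77 in control epididymis and 6.44 in low protein epididymis. Defb26, which acts with Defb23 and Defb42 in sperm motility, did not overlap between tissues and changed by -0.89 ± 0.20 (limma adjusted p = 0.00664, and 0.105 without the control epididymis array). Defb23 read 5.40, 5.36 and 5.01 in control sperm, 5.22 and 5.67 in low protein sperm, 4.79 in caloric restriction sperm, 6.43 in control epididymis and 5.11 in low protein epididymis. The 2 epididymis arrays differed for Defb23 by more than any sperm arrays did, and its change of -0.47 ± 0.30 did not pass the test (limma adjusted p = 0.25). The result hung on which epididymis array was left out, which also changes the sperm arrays that it is set against. Defb23 was at -1.18 without the low protein epididymis array and at 0.33 without the control one. Defb22 read 4.78, 4.52 and 4.41 in control sperm, 4.49 and 4.50 in low protein sperm, 4.46 in caloric restriction sperm, 5.10 in control epididymis and 4.68 in low protein epididymis. Defb22, a major component of the sperm surface coat, read below the array median on all 8 arrays and overlapped between tissues, with a change of -0.37 ± 0.17 (limma adjusted p = 0.106).

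Defb33, which stands alone on chromosome 8, was the 1 gene higher in sperm. Defb33 read 5.57, 5.77 and 5.02 in control sperm, 6.26 and 6.72 in low protein sperm, 5.78 in caloric restriction sperm, 4.87 in control epididymis and 4.70 in low protein epididymis. Every sperm array lay above both epididymis arrays, but signal was low, at the 15.6th percentile in epididymis. The change was 1.15 ± 0.29 (limma adjusted p = 0.0124), and without the low protein epididymis array it was 0.58 (limma adjusted p = 0.274).

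Several genes with known roles in other epithelia gave low signal in both tissues. Defb14 read 5.11, 5.79 and 5.73 in control sperm, 5.66 and 5.11 in low protein sperm, 5.35 in caloric restriction sperm, 5.30 in control epididymis and 5.08 in low protein epididymis. Defb14, a ligand of Ccr6, overlapped between tissues, with a change of 0.28 ± 0.22 (limma adjusted p = 0.354). Defb4 read 3.22, 3.38 and 2.64 in control sperm, 3.32 and 3.35 in low protein sperm, 3.18 in caloric restriction sperm, 3.37 in control epididymis and 3.48 in low protein epididymis. Signal of Defb4, which is induced in inflamed epithelia, was among the lowest of the array, at the 2.5th percentile in epididymis. Defb3 read 4.55, 4.74 and 4.52 in control sperm, 4.68 and 4.94 in low protein sperm, 4.67 in caloric restriction sperm, 4.48 in control epididymis and 4.48 in low protein epididymis. Defb3, induced in infected airways, varied by less than 0.5 log2 units over the 8 arrays, with a change of 0.22 ± 0.16 (limma adjusted p = 0.288).

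Genes described in the caput, the head of the epididymis, also lay below the array median. Defb15 read 6.03, 5.50 and 5.84 in control sperm, 5.80 and 6.14 in low protein sperm, 5.68 in caloric restriction sperm, 5.54 in control epididymis and 5.66 in low protein epididymis. Its arrays overlapped between tissues, and the change was 0.28 ± 0.18 (limma adjusted p = 0.254). Defb41 read 2.98, 3.13 and 3.00 in control sperm, 3.38 and 3.79 in low protein sperm, 2.92 in caloric restriction sperm, 2.95 in control epididymis and 3.11 in low protein epididymis. At the 0.8th percentile in epididymis, Defb41 had one of the lowest signals of the family. The other proximal genes of the marker list were split, with Lcn5, Lcn8, Lcn9 and Rnase10 low and Adam7, Ces5a, Lcn12 and Rnase12 high in epididymis.

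By the ranges of single arrays, 12 genes had all sperm arrays below both epididymis arrays (28.0% of all genes did) and 3 had all above (22.9% of all genes did). The 12 were the 11 genes that fell and Defb20, and the 3 were Defb33, Defb36 and Defb3. Defb20 read 6.22, 5.98 and 5.84 in control sperm, 6.20 and 6.17 in low protein sperm, 6.28 in caloric restriction sperm, 6.31 in control epididymis and 6.39 in low protein epididymis. Its change was -0.25 ± 0.16 (limma adjusted p = 0.229). The 28 genes that passed the test in neither direction had changes of -0.47 to 0.46 with standard errors of 0.15 to 0.33, and these include every one of the 14 genes below the 25th percentile in epididymis except Defb33.

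Signal of the 9 bright genes in sperm was put on a linear scale and given as a percentage of epididymis. The epididymis level was the geometric mean of the 2 arrays, that is, the mean of their log2 values. In control sperm it was 74.0% ± 8.07 (SD, n = 3) for Defb28, 57.0% ± 14.8 for Defb43, 49.6% ± 12.7 for Defb40 and 44.1% ± 12.5 for Defb11. It was 39.3% ± 19.0 for Defb38, 31.2% ± 5.54 for Defb37, 30.7% ± 1.46 for Defb42, 29.8% ± 7.44 for Defb1 and 20.6% ± 7.16 for Defb39. Neighbours in this order overlapped in their spread, while the ends, Defb28 and Defb39, were far apart on every array but the second low protein one, where Defb28 was at 22.8% and Defb39 at 13.8%. The median over the 9 genes was 30.2%, 57.4% and 38.2% in control sperm, 30.9% and 16.3% in low protein sperm and 25.7% on the caloric restriction array. Of the 6 sperm arrays, the second control array was the highest for 8 of the 9 genes and the second low protein array the lowest for 8 of the 9.

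Of 20 general and distal markers of the epididymal epithelium, 14 were also lowest on the second low protein array among the sperm arrays. Their median was 52.0%, 56.0% and 62.9% of epididymis in control sperm, 45.1% and 27.7% in low protein sperm and 40.4% on the caloric restriction array. Their summed signal was 10009 to 12185 in control sperm, 5603 to 8680 in low protein sperm, 8831 in caloric restriction sperm, and 20779 and 20896 in control and low protein epididymis. By limma 16 of these 20 were lower in sperm and 2, Cftr and Car2, were higher. Of the 20 proximal markers, 4 were lowest on the second low protein array, namely Adam7, Ces5a, Lcn12 and Rnase12. The median of all 20 was 104% on that array, where the other sperm arrays ranged from 84.5% to 103%. This median is set largely by the 13 that read below the array median in epididymis. Summed signal of the 20 was 7495 to 11318 for control sperm, 3423 to 6934 for the low protein arrays and 6408 for the caloric restriction array. The control and low protein epididymis arrays had 18891 and 20305. The median of 10 smooth muscle markers was 15.8% to 18.6% in control sperm, 13.7% and 11.6% in low protein sperm and 13.2% on the caloric restriction array. No marker read 0, since the deposited log2 values have no zero. The part of epididymal RNA in the sperm values of the family was not tested.

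**Figure D3:**
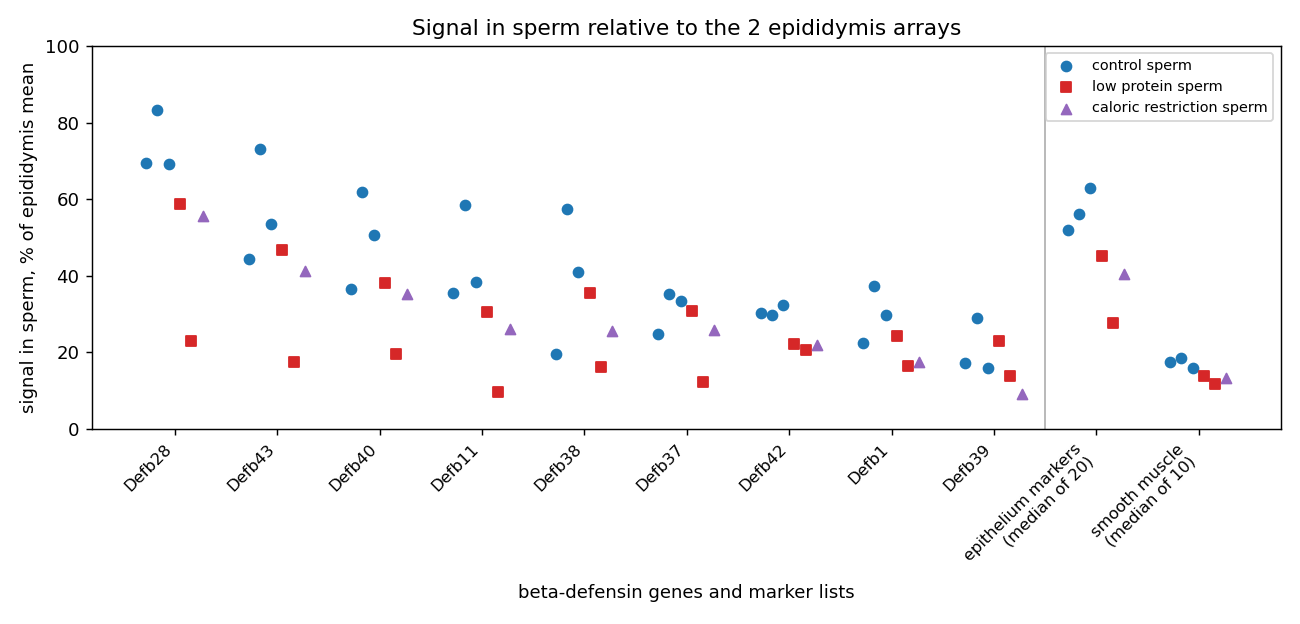
Sperm signal as a percentage of the geometric mean of the 2 epididymis arrays (y axis, linear scale), for the 9 beta-defensin genes brightest there. Right of the line are the medians of 20 general and distal epithelial markers and 10 smooth muscle markers, and each symbol is 1 sperm array. The second low protein array is lowest for 8 of the 9 genes and for both marker lists, at 16.3% as the median of the 9 genes.

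Low protein sperm was set against control sperm to ask whether the father's diet alters these RNAs. None of the 40 genes passed the threshold by limma, as for all genes (0%), and 2 were higher (against 10.8% of all genes) and 5 lower (against 9.82% of all genes) at an unadjusted p under 0.05. Defb33 had the smallest p, with a mean of 5.45 ± 0.39 (SD, n = 3) in control and 6.49 ± 0.33 (SD, n = 2) in low protein sperm, a change of 1.04 ± 0.25 (SE; limma adjusted p = 0.0972). Both low protein arrays lay above all 3 control arrays for this gene. Defb42 had an estimate of -0.53 ± 0.17 (limma adjusted p = 0.153), also with no overlap between the diets. Defb11 had the largest change, -1.32 ± 0.43 (limma adjusted p = 0.154), with the second low protein array far below the first. Without the first low protein array, so that the second stood alone and the error came from the 3 control arrays only, 9 members were lower and 5 higher, where 15.5% of all genes were lower and 15.6% higher, and without the second low protein array no member passed. Defb11 was then at -2.16 (limma adjusted p = 0.00018) and at -0.49 (limma adjusted p = 0.536).

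The caloric restriction array was set against the same 3 control sperm arrays and, as a single array, took its error from the spread within the other diets. None of the 40 genes passed by limma, where 4.64% of all genes did (4.59% higher and 0.0567% lower), and 0 were higher (against 10.4% of all genes) and 2 lower (against 3.56% of all genes) at an unadjusted p under 0.05. Those 2 were Defb39, with a change of -1.11 ± 0.38 (SE; limma adjusted p = 0.197), and Defb1, with -0.74 ± 0.33 (limma adjusted p = 0.354). Defb39 read lower on this array than on any other. Its estimate stayed the same when either one of the low protein arrays was left out, since those arrays enter only the error. With 1 of them left out, the error came from the 3 control arrays alone. The median change was -0.25 over the 40 genes and -0.10 over all genes.

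Pooling both restricted diets gave 3 sperm arrays against 3. None of the 40 genes passed by limma, where 1.94% of all genes did (1.92% higher and 0.0206% lower), and 1 was higher (against 10.8% of all genes) and 8 lower (against 10.2% of all genes) at an unadjusted p under 0.05. The smallest p was that of Defb42, with an estimate of -0.51 ± 0.15 (SE; limma adjusted p = 0.114), followed by Defb33 with 0.80 ± 0.27 (limma adjusted p = 0.137) and Defb11 with -1.12 ± 0.38 (limma adjusted p = 0.143). All 3 restricted arrays lay below all 3 control arrays for 4 genes, Defb28, Defb11, Defb42 and Defb46 (13.7% of all genes did), and above them for 1, Defb33 (13.3% of all genes did). These 3 diet comparisons share the same control arrays. Summed signal of the epithelial markers was lower on all 3 restricted arrays than on the control arrays, as given above, and summed germ cell marker signal was higher, at 29253 to 39266 on the control arrays, 45439 to 55646 on the low protein arrays and 47712 on the caloric restriction array; their part in the values of the family was not tested.

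In epididymis there was 1 array per diet and no test. Low protein was lower than control by 0.5 or more for 2 of the 40 genes (1.54% of all genes) and higher for 0 (1.34% of all genes, and 2.88% in either direction). Those 2 were Defb23, with 6.43 in control and 5.11 in low protein epididymis, a difference of -1.32, and Defb42, with 9.26 and 8.50, a difference of -0.76. Defb30 lay just outside with 6.23 and 5.73, a difference of -0.495. The highest differences were 0.33 for Defb18, with 4.46 and 4.79, 0.31 for Defb34, with 5.33 and 5.64, and 0.24 for Defb38. The SD of this difference over all genes was 0.21. The 2 brightest genes differed little, Defb11 by -0.02 and Defb28 by -0.21.

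The low protein effect in sperm was then compared with that in epididymis. No gene of the family and no gene of the array (0%) passed by limma, where the smallest adjusted p was 0.971, and 2 members were higher (against 3.55% of all genes) and 0 lower (against 0.422% of all genes) at an unadjusted p under 0.05. The 2 were Defb23, with a difference of effects of 1.51 ± 0.39 (SE; limma adjusted p = 0.971), and Defb33, with 1.20 ± 0.47 (limma adjusted p = 0.971). Defb11 followed with -1.30 ± 0.79. Without the first low protein sperm array, which leaves 1 array in each group but control sperm, 1 member was higher, Defb23, and 3 were lower, with 2.56% of all genes higher and 3.92% lower.

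**Figure D4:**
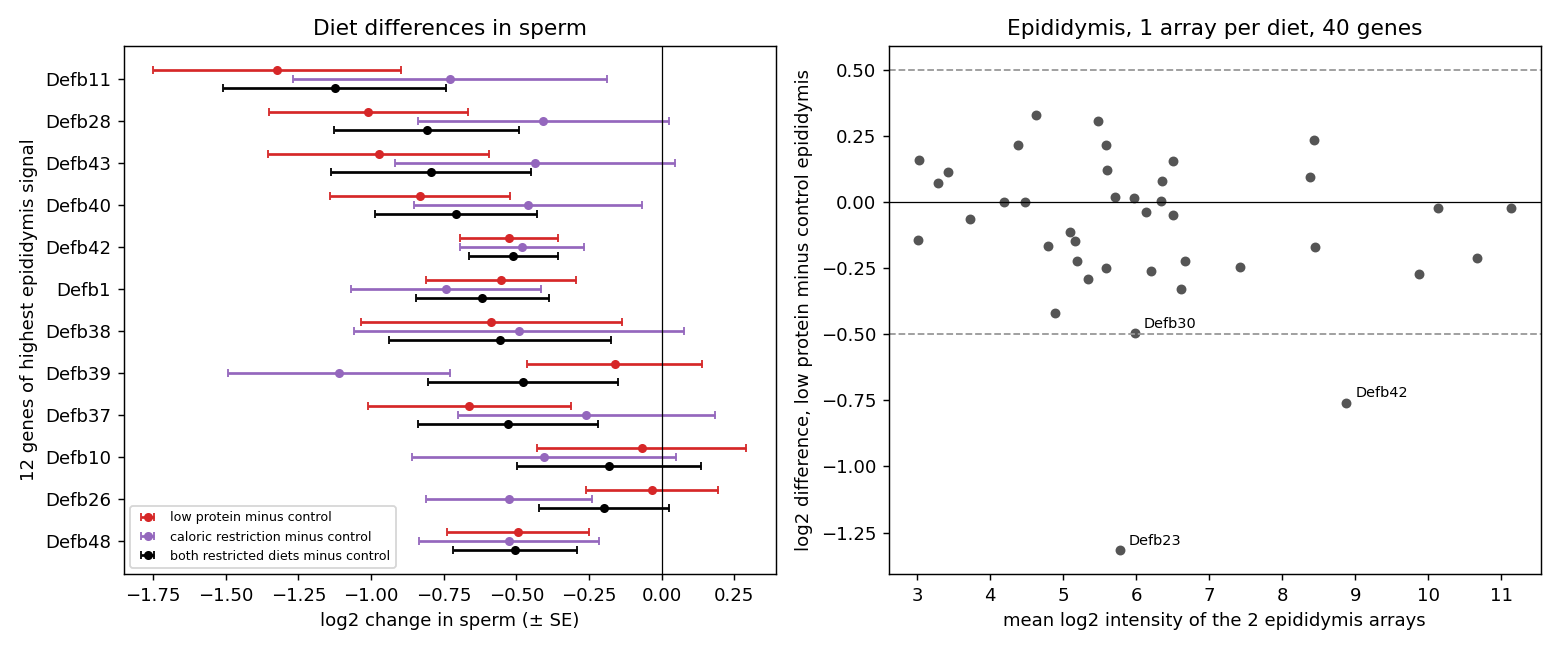
Left, log2 change in sperm (x axis, limma estimate with its SE) for the 12 beta-defensin genes of highest epididymis signal, with low protein in red, caloric restriction in purple and both restricted diets together in black; none passed an adjusted p of 0.05. Right, log2 difference between low protein and control epididymis (y axis) against their mean log2 intensity (x axis) for 40 genes, with dashed lines at 0.5 and -0.5, where Defb23 and Defb42 lie below.

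Other genes of the same defence system were read for comparison. Of 2 beta-defensin relatives of other name, Spag11b was higher in sperm, by 1.04 ± 0.28 (SE; limma adjusted p = 0.0163), and Spag11a did not pass the test, at -0.29 ± 0.15 (limma adjusted p = 0.14). Spag11b read below the array median on every array and overlapped between tissues, with 4.52 in caloric restriction sperm and 5.01 in control epididymis. Of 18 other antimicrobial proteins, 4 were higher in sperm (Lyz1, Lyz2, Slpi and Wfdc15a) and 3 lower (Lcn2, Ltf and Wfdc15b), with a median change of 0.15. Beside this list and the 2 that follow, 15.2% of all genes were higher and 22.7% lower, with a median change of 0.05. Lcn2, which starves bacteria of iron, fell by 2.49 on the log2 scale (limma adjusted p = 7.19e-06). Of 12 receptors and sensors of defensins and microbes, 0 were higher and 2 lower in sperm, Ly96 and Myd88, and Ccr6 was at 0.36 ± 0.18 (limma adjusted p = 0.148). Of 8 regulators of defensin genes, 0 were higher and 2 lower, Esr1 and Nfkbia. In low protein sperm no gene of these 4 lists passed, and on the single caloric restriction array, which has no replicate and takes its error from the other diets, Wfdc15a was higher, by 1.76 (limma adjusted p = 0.00264), and Lcn2 lower, with a change of -1.18 (limma adjusted p = 0.0149).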

How the data were processed

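RNA of 6 sperm and 2 epididymis samples was measured on 8 arrays. The authors deposited 1 log2 intensity for each probe set and array, computed with RMA per the submitters' processing notes. Its version and probe annotation are not given here. The scale was read from the values, and the number of arrays limits the precision.

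Of 33660 probe sets, 21222 carried 1 gene by the platform annotation, 1541 several, and 10897 are unnamed in it. For 21137 the gene ID gave the current symbol. The probe set of highest mean stood for a gene, with no filter on level. Tests used limma 3.58.1 in R 4.3.3 (lmFit and eBayes, two-sided, Benjamini-Hochberg over 19411 genes, threshold 0.05), and were tested on simulated data. The tissue fit held 8 arrays and added a tissue term to a diet term; since caloric restriction has 1 array, the tissue effect rests on 5 sperm arrays and 2 of epididymis. Sperm diet fits held 6 arrays, the test between tissues 8 arrays and 5 group means. Epididymis diets had no test and a threshold of 0.5.

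Values per array are given for the 12 genes of highest epididymis signal, for the largest changes past the threshold between tissues (up to 5 each way), for the genes of largest change or smallest p per diet comparison, for the 3 largest epididymis differences each way, and for genes of known role. The members, lists, motifs and the 9 bright genes were chosen with earlier results of these data known. Alternatives changed the normalization, the filter, the probe set rule, the variance model, the diet term, the threshold and the arrays. Promoters came from RefSeq GRCm38.p6, aligned in pairs with end gaps free of cost, so the aligned length differs between pairs. Probe set coordinates were not used.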

Additional observations from a re-analysis of the deposited data

How the results depend on the processing

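Under the other normalizations, variance models and probe set rule the tissue counts stayed within 1.5 times those reported. With the lowest 30% of genes left out, 20 members were tested, and 9 were lower and 0 higher. Of all 13588 genes kept there, 4093 were lower and 2504 higher. Leaving out 1 array gave 7 to 13 lower and 0 to 1 higher members between tissues, 0 to 9 lower and 0 to 5 higher in low protein sperm, 0 to 1 lower in caloric restriction sperm, 0 in both restricted diets, and 0 to 3 lower and 0 to 1 higher in the test between tissues of the low protein effect. Shares of all genes called moved too, so the ranges do not set the family apart. The shares are given above for the extremes between tissues, in low protein sperm and for the low protein effect. Where 1 member was lower in caloric restriction sperm, more of all genes were too. With both restricted diets 0% of all genes were called with 1 control array or the caloric restriction array left out. Without the first or second low protein array 4.92% or 3.44% were higher. In epididymis 1 member was lower at a threshold of 1, and 1 with the lowest 30% left out. Leaving out 1 array turned the sign of some changes, none of them past the threshold where the sign turned. Between tissues Defb48 ranged from -0.37 to 0.077, with 0.0065 without the second low protein sperm array, and Defb23 from -1.18 to 0.33. In low protein sperm Defb26 ranged from -0.21 to 0.12, Defb39 from -0.52 to 0.20, Defb37 from -1.33 to 0.0043, and Defb10 from -0.50 to 0.15. With both restricted diets Defb10 ranged from -0.61 to 0.038. The causes were not tested. Defb28 lost its tissue call under quantile normalization (-0.49, limma adjusted p = 0.201) and cyclic loess (-0.40, limma adjusted p = 0.123), with a variance trend, with robust variances, without the diet term and with low genes left out. No paired analysis was possible because the labels name samples by letters that no 2 groups share. With 1 epididymis array per diet, the spread within that tissue is not measured, and signal near background leaves little room to show a difference.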
